A study of Mus musculus with 36 samples.

Results

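Brain RNA of Ndufs4 knockout (KO) mice was compared with that of wild type (WT) mice after vehicle treatment, among the animals whose sample titles carry the letter M. The comparison holds 3 KO and 3 WT samples, 6 of the 36 in the series, and they were chosen by their titles alone. All 36 mice were 37 to 45 days old and were gavaged for 3 days with vehicle or with CP2, a small-molecule inhibitor of mitochondrial complex I, before polyA RNA was sequenced. The KO group used here carries the label ndufs4-ko and received vehicle. The WT group also received vehicle, so gavage is common to both and the label differs in genotype only. The labels do not say which part of the gene was deleted, whether the deletion was restricted to a cell type, or what the vehicle was. Each title number belongs to 1 sample and nothing states litter or cage, so samples were treated as independent, which the labels cannot show. The p-values of the gene tests rest on a spread estimated over all 36 samples, not these 6 alone. The tissue label reads brain, and the design text of the series names hippocampus and cortex, without the share of each. The letter is not explained in the labels. Xist, the RNA that coats the inactive X chromosome, stood at 0.147 to 0.833 CPM (counts-per-million) in the 6 samples, and the Y-linked gene Ddx3y at 65.8 to 79.5 CPM, against 439 to 798 and at most 0.214 CPM in the 20 samples with the letter F.

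Complex I passes electrons from NADH to ubiquinone and pumps protons across the inner mitochondrial membrane. Ndufs4 encodes an accessory subunit of its NADH-oxidising module, the N module, and mice without it develop a fatal encephalopathy used as a model of Leigh syndrome, with lesions known mainly from brainstem and olfactory bulb. The comparison addresses how brain transcript levels differ between the genotypes when no inhibitor has been given. The NDUFS4 protein was not measured here.

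The 6 libraries held between 46590179 and 57342913 gene counts. Reads outside annotated genes made up 11.3% to 13.03% of the table in KO and 9.48% to 11.6% in WT, a difference of 1.90 percentage points (exact two-sided permutation p = 0.2, where 0.1 is the smallest that 3 against 3 samples allow). WT sample L303, at 11.6%, lay within the KO range. Genes with a count numbered 29716 to 29864 in KO and 28213 to 29281 in WT, without overlap (exact two-sided permutation p = 0.1). One gene without a symbol, ENSMUSG00000119584, took 1.60% of the counts in WT L303 and 3.26% to 4.34% in the other 5 samples. Among pairs within a group, log2 CPM correlated across genes at 0.972 to 0.978, and pairs between groups overlapped this range at 0.966 to 0.975. The chi-square per gene averaged 14.2 to 46.0 within and 28.0 to 62.6 between groups, and no 2 libraries looked like copies of 1 library.

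Tissue markers also differed between the groups, before any question about the knockout. Red cell genes (4 globins and a heme synthesis enzyme) summed to 437.2, 647.5 and 114.6 CPM in WT and to 38.6, 87.4 and 56.5 CPM in KO, so the groups did not overlap. The 7 thalamus markers summed to 335.1 to 405.3 CPM in WT and 159.0 to 205.2 CPM in KO, and all 7 had negative fold changes. The 8 hypothalamus markers summed to 46.5 to 304.9 CPM in WT, highest in WT L285, and to 28.3 to 76.4 CPM in KO. The markers of the 2 named regions mostly went the other way. The 9 hippocampal CA markers summed to 353.8 to 361.2 CPM in WT and 436.3 to 522.8 CPM in KO (6 of 9 fold changes positive). The 13 markers of cortical excitatory neurons summed to 3420 to 4166 CPM in WT and 4255 to 4860 CPM in KO (10 of 13 positive). The 8 dentate gyrus markers overlapped, at 100.4 to 136.3 CPM in WT and 113.5 to 125.5 CPM in KO. No marker of these lists was at 0 in all 6 samples, whereas the T cell marker Cd8a was. Sums of some other lists, such as myelin genes and brain endothelium, also did not overlap between the groups, and those of others, such as choroid plexus, did. In bulk RNA, fewer cells of a type and less RNA per cell cannot be told apart. The part of tissue composition in the results below was not tested beyond the covariate fits that are given with them. The marker covariates were built from RNA levels of the same samples. Red cell, thalamus and hippocampal CA sums did not overlap between the groups, so fits with them cannot separate composition from genotype.

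**Figure D1:**
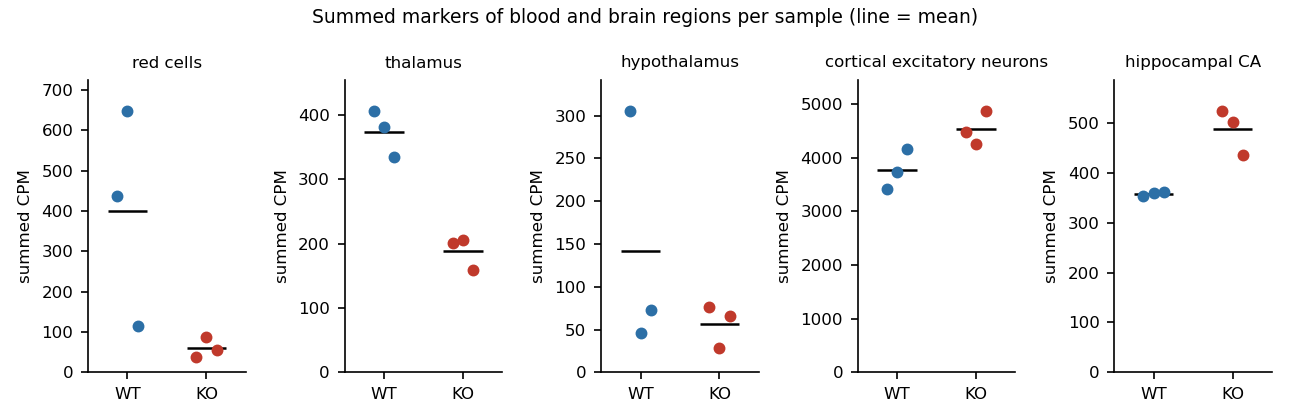
Summed CPM of 5 marker lists (vertical axes, each from 0) in the 3 WT (blue) and 3 KO (red) samples given vehicle, title letter M, where each point is 1 sample and the line is the mean. Red cell and thalamus sums were lower in every KO sample than in every WT sample, cortical and hippocampal CA sums were higher, and the hypothalamus sums overlapped.

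The targeted gene was checked first. Ndufs4 (ENSMUSG00000021764) stood at 27.4, 27.5 and 29.6 CPM in KO and at 45, 50.1 and 38.9 CPM in WT. No KO sample reached the lowest WT sample, and the KO samples spread less (28.2 ± 1.2 CPM, SD, n = 3, against 44.6 ± 5.61 CPM, SD, n = 3). Ndufs4 fell by 0.66 (SE 0.11, adjusted p = 0.00895) in the quasi-likelihood test of edgeR, which is 1.58-fold. The mean log2 CPM differed by -0.66 (exact two-sided permutation p = 0.1, the smallest possible). The transcript was lower, not absent, and gene-level counts cannot place the KO reads in particular exons. The call was lost without WT L285 (fell by 0.66, adjusted p = 0.0513) and without WT L300 (fell by 0.57, adjusted p = 0.0599) and held without any of the other 4 samples.

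The 5 tested genes on each side of Ndufs4, ordered by the GENCODE M21 annotation on chromosome 13, were read as well. Only Arl15, which encodes a small GTPase of the ARF-like family and is the third gene before Ndufs4, was called among these 10. Arl15 stood at 40.4, 34.9 and 49.3 CPM in KO and 26.5, 28.1 and 31.4 CPM in WT, without overlap, and rose by 0.53 (SE 0.12, adjusted p = 0.0306). It was not called without KO L322 (0.39, adjusted p = 0.339), WT L285 (0.48, adjusted p = 0.237) or WT L300 (0.53, adjusted p = 0.129). The others were Snx18 (-0.23), Hspb3 (0.41), A430090L17Rik (-0.20), Gm47558 (1.41), Fst (-0.60), Mocs2 (-0.10), Itga2 (0.44), Itga1 (0.18) and Gm49395 (-0.29) on the log2 fold change scale, with adjusted p-values from 0.43 to 0.978.

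Across all genes, 132 of 25601 were called at an adjusted p under 0.05 in edgeR (0.516%), 58 higher in KO (0.227%) and 74 lower (0.289%). Their median absolute log2 fold change was 0.57, and 23 of them reached 1 in size, 13 higher and 10 lower. Without adjustment 3132 genes had p under 0.05 (12.2%). The median log2 fold change over all genes was 0.01. In all 132 called genes the 3 KO and 3 WT samples did not overlap, which was also true of 5339 genes in all (20.9%). Of the 132, 124 were protein-coding.

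The count rested on single samples. It was 0 without WT L285 (2210 genes at an unadjusted p under 0.05), 5 without WT L300 and 9 without KO L322, and it was 77 without KO L319, 103 without KO L310 and 152 without WT L303. The 5 and the 9 were among the 132, so each gene named below as called lost its call without WT L285, and all but a few did without WT L300 or KO L322. Fitting the 6 samples alone gave 483 calls and DESeq2 gave 569, with 117 and 130 of the 132 among them. Adding the unassigned-read share (reads outside genes) as covariate left 66 calls, the red cell markers left 45, and the thalamus markers left 0 (1640 at an unadjusted p under 0.05). The last pair of covariates was added after seeing the data. Every one of the 132 kept its direction in each of 20 refits that measured it. The log2 fold change ranged from 0.461 to 1.44 times its value in the fit of all samples. These refits reuse the same samples, and the groups did not overlap in any of the 132. A change of direction was therefore unlikely beforehand, and the kept direction is no separate support.

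**Figure D2:**
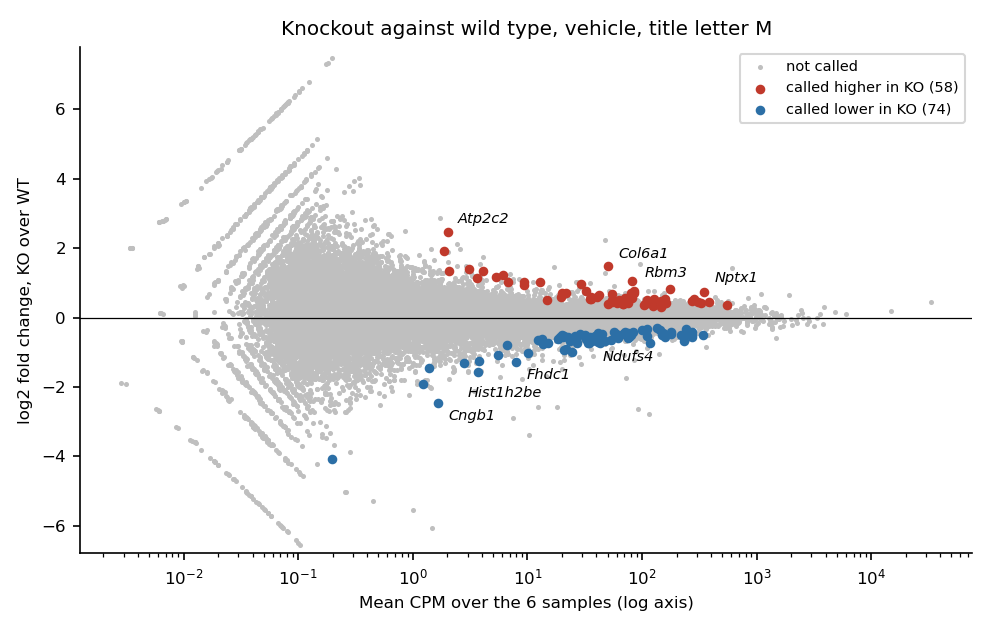
Log2 fold change of KO over WT (vertical axis) against the mean CPM over the 6 samples (horizontal log axis) for the 25601 tested genes. The 58 genes called higher are red, the 74 called lower are blue, and the rest are grey. Most called genes lie above 10 CPM with log2 fold changes under 1 in size.

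The genes that rose most belonged to several kinds. Rbm3, an RNA-binding protein known to be induced by mild cold, was the most abundant of the 12 with the largest rises. Rbm3 stood at 103, 108 and 123 CPM in KO and 48.4, 60.0 and 51.8 CPM in WT and rose by 1.06 (SE 0.21, adjusted p = 0.0176). The lowest KO sample was far above the highest WT sample. Cirbp, the related cold-inducible RNA-binding protein, was chosen after its values were seen: it had 66, 84.2 and 99.8 CPM in KO and 58.2, 52.7 and 50.3 CPM in WT, and was not called (log2 fold change 0.63, SE 0.22, adjusted p = 0.195).

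Col6a1, a chain of the microfibrillar collagen VI of the extracellular matrix, had 62.4, 70.1 and 90.8 CPM in KO and 22.5, 27.1 and 30.1 CPM in WT. It rose by 1.49 (SE 0.30, adjusted p = 0.0165), and the lowest KO sample was above the highest WT sample by a wide margin. Smoc2, a secreted calcium-binding matrix protein, stood at 20.2, 15.7 and 16.1 CPM in KO and 7.71, 8.19 and 9.53 CPM in WT and rose by 1.03 (SE 0.21, adjusted p = 0.0122). Cybrd1, a plasma-membrane cytochrome that reduces ferric iron, stood at 14.4, 6.01 and 5.34 CPM in KO and 2.63, 4.2 and 4.22 CPM in WT and rose by 1.22 (SE 0.28, adjusted p = 0.0306). KO L310 was far above the other KO samples in Cybrd1, and without it the log2 fold change was 0.63 (adjusted p = 0.29).

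Atp2c2, a Golgi calcium and manganese pump, had the largest rise of all called genes at low counts. Its KO samples stood at 4.53, 3.79 and 1.93 CPM and its WT samples at 0.694, 0.631 and 0.503 CPM (log2 fold change 2.48, SE 0.50, adjusted p = 0.0128). C1ra, a protease that starts the classical complement cascade, stood at 4.12, 2.18 and 2.54 CPM in KO and 0.582, 0.904 and 0.833 CPM in WT (log2 fold change 1.93, SE 0.44, adjusted p = 0.0324). C1ra has a near-identical copy, C1rb, so its level depends on how reads that match both were counted. Mybpc1, a myosin-binding protein of slow muscle, stood at 7.1, 6.92 and 3.61 CPM in KO and 2.66, 2.75 and 1.57 CPM in WT (log2 fold change 1.33, SE 0.31, adjusted p = 0.0327), and Klhl40, a kelch protein known from muscle, at 7.08, 8.63 and 6.52 and 2.78, 3.98 and 3.19 CPM (log2 fold change 1.16, SE 0.26, adjusted p = 0.0264). In all 4 genes every KO sample was above every WT sample. The remaining 4 of the 12 are RNAs of little known function: 5330413P13Rik rose by 1.41, 4933433G19Rik by 1.35, Gm28578 by 1.14 and B230208B08Rik by 1.04. 4933433G19Rik is annotated as antisense, and without a stated strand setting its reads cannot be told from those of the gene opposite. Of these 12 genes, 7 were called without KO L310, 8 without KO L319, 3 without KO L322, 5 without WT L303, and 0 without WT L285 or WT L300.

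Among the 12 genes with the largest falls, Fhdc1, a formin-like protein that links actin and microtubules, shared the smallest adjusted p of all genes with Ndufs4, Slc4a10 and Rtn4rl1. Fhdc1 stood at 4.08, 6.68 and 3.13 CPM in KO and 13.3, 10.9 and 9.43 CPM in WT and fell by 1.28 (SE 0.23, adjusted p = 0.00895). Its values in KO ranged about as widely as in WT, yet the groups did not overlap.

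Other genes among these 12 have varied roles. Shh, the hedgehog ligand that patterns the neural tube and acts on astrocytes in the mature brain, stood at 3.29, 4.14 and 3.21 CPM in KO and 7.63, 7.08 and 7.63 CPM in WT and fell by 1.07 (SE 0.24, adjusted p = 0.0306). The WT samples were within 1 CPM of each other. Mdk, the heparin-binding growth factor midkine, had 6.81, 7.97 and 5.29 CPM in KO and 17.4, 14.5 and 9.12 CPM in WT and fell by 1.03 (SE 0.20, adjusted p = 0.0121). Lcat, the enzyme that esterifies cholesterol on lipoproteins and is made by astrocytes in brain, stood at 14.8, 17.2 and 11 CPM in KO and 29.3, 28.1 and 24.4 CPM in WT and fell by 0.93 (SE 0.18, adjusted p = 0.0121).

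Btbd17, a BTB-domain protein, fell by 0.98 (SE 0.18, adjusted p = 0.0121), with 18.7, 15.2 and 15.7 CPM in KO and 28, 36.7 and 33.5 CPM in WT. Klhdc7a, a kelch-domain protein, fell by 0.90 (SE 0.18, adjusted p = 0.0121), with 14.3, 16.2 and 15.2 CPM in KO and 28.2, 31.8 and 25.5 CPM in WT. For both genes the highest KO sample stayed below the lowest WT sample. Cngb1, a subunit of cyclic nucleotide-gated channels, was low: 0.288, 0.592 and 0.626 CPM in KO and 4.9, 1.64 and 1.88 CPM in WT (log2 fold change -2.47, SE 0.60, adjusted p = 0.0486), with WT L285 far above the other WT samples. Without WT L285 its log2 fold change was -1.80. Also low were the homeobox gene Six4 (log2 fold change -1.46, SE 0.34, adjusted p = 0.035), the zinc finger repressor Rsl1 (log2 fold change -1.31, SE 0.29, adjusted p = 0.0264) and the RNA A230001M10Rik (log2 fold change -1.25, SE 0.31, adjusted p = 0.0468). The last 2 of the 12 are histone genes and follow below. Of the 12, 7 were called without KO L310, 9 without KO L319, 0 without KO L322, 0 without WT L285, 1 without WT L300 and 8 without WT L303.

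**Figure D3:**
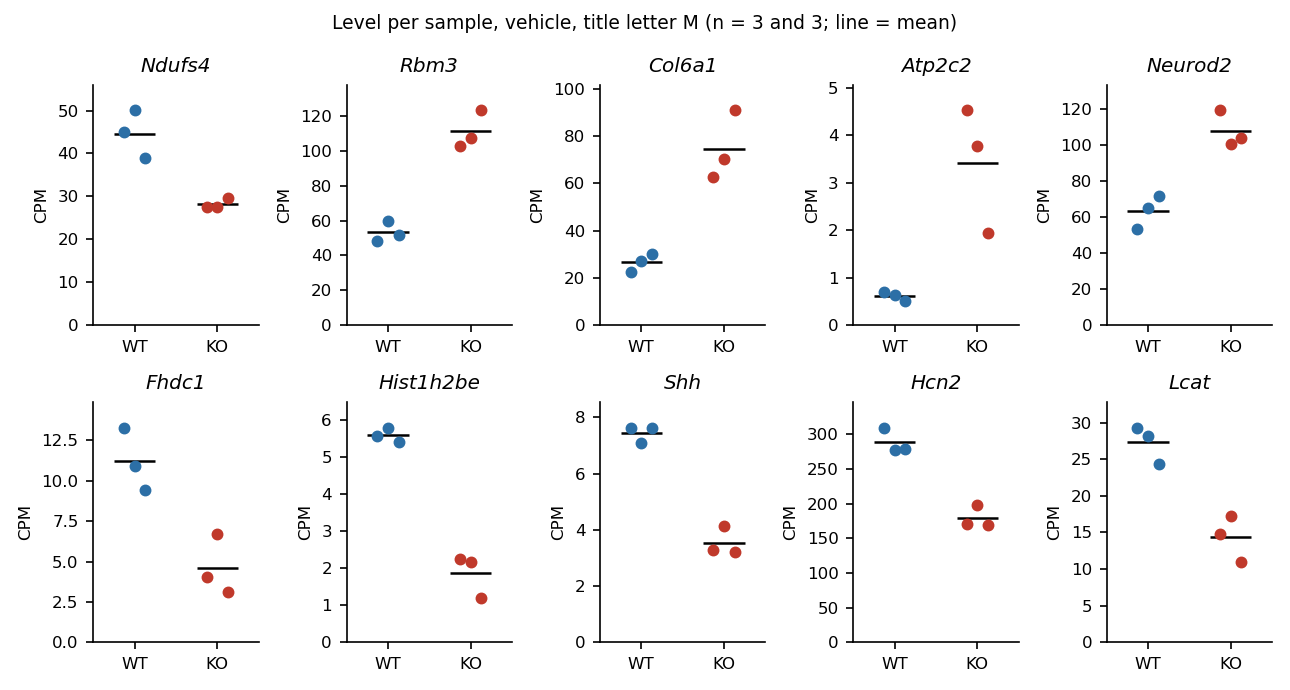
CPM (vertical axes, each from 0) of 10 called genes in the 3 WT (blue) and 3 KO (red) samples given vehicle, title letter M, where each point is 1 sample and the line is the mean. Rbm3, Col6a1, Atp2c2 and Neurod2 were higher and Ndufs4, Fhdc1, Hist1h2be, Shh, Hcn2 and Lcat lower in every KO sample.

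Histone cluster genes encode the core and linker histones, most of them with transcripts that end in a stem-loop and carry no poly(A) tail. Of 8 tested genes in this list, 3 were called lower and 0 higher, and the median log2 fold change was -0.83. Hist1h2be had 2.24, 2.18 and 1.2 CPM in KO and 5.57, 5.8 and 5.42 CPM in WT and fell by 1.58 (SE 0.33, adjusted p = 0.0157). Hist2h3c2 had 0.968, 0.254 and 0.313 CPM in KO and 1.29, 1.96 and 2.5 CPM in WT and fell by 1.91 (SE 0.47, adjusted p = 0.049). Hist1h2bc, the most abundant of the 3, had 23.5, 22.2 and 15.1 CPM in KO and 37.1, 37.7 and 27 CPM in WT and fell by 0.74 (SE 0.18, adjusted p = 0.0498). In all 3 genes the KO samples lay below the WT samples. Hist1h4h was not called (log2 fold change -2.01, SE 0.51, adjusted p = 0.0521), nor was Hist1h4i (log2 fold change -0.91, SE 0.40, adjusted p = 0.331). These genes have near-identical copies, so single values are uncertain. With the unassigned-read share as covariate 1 of the 3 was called. With 1 sample left out the number was 2 (KO L310, WT L303), 1 (KO L319) or 0 (KO L322, WT L285, WT L300).

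Hist1h2be is listed as H2bc6 in RefSeq, and its start region is shown because it was the histone gene with the smallest p. The sequence runs 5′ to 3′ from 250 bases before the start to 50 after it, on GRCm38.p6 at chr13:23585921-23586220, minus strand, the downstream one of 2 listed starts. Capitals mark CCAAT on either strand.
H2bc6: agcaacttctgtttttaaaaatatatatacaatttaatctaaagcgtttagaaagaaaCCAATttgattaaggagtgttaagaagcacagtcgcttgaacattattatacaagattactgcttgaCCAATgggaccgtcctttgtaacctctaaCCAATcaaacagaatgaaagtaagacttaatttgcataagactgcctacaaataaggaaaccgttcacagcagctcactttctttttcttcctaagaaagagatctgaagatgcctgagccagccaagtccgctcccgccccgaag
The window holds 3 matches to CCAAT, 0 to TATAAA and 0 to GAANNTTC, a core of the heat shock element. Other arrangements of that element were not searched. Over all 32851 RefSeq start windows of the same length, 37.4% held CCAAT, 13.6% TATAAA and 7.86% GAANNTTC, on either strand. A match describes the letters only.

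Markers of cortical excitatory neurons had mostly positive fold changes. Of the 13 genes 1 was called higher and 0 lower, 10 of 13 had positive fold changes, and the median was 0.29. The called gene was Neurod2, a transcription factor of differentiating and mature glutamatergic neurons. Neurod2 stood at 119, 101 and 104 CPM in KO and 53.6, 65.1 and 71.9 CPM in WT and rose by 0.77 (SE 0.16, adjusted p = 0.019). Slc17a7, the vesicular glutamate transporter of cortex and hippocampus, had 1533, 1208 and 1272 CPM in KO and 754, 831 and 900.0 CPM in WT and was not called (log2 fold change 0.69, SE 0.20, adjusted p = 0.108), and neither was the deep-layer factor Fezf2 (log2 fold change 0.74, SE 0.26, adjusted p = 0.204). Neurod2 was not called without KO L310, KO L322, WT L285 or WT L300. None of 9 hippocampal CA markers was called. Their median was 0.40, with Wfs1 at 0.72 (adjusted p = 0.105) and Neurod6 at 0.55 (adjusted p = 0.319). Dentate gyrus markers had a median of 0.09 over 8 genes, with 0 called.

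Other forebrain genes were among the 132, and those in this paragraph were chosen after their values were seen. Nptx1, a secreted pentraxin that clusters AMPA receptors at excitatory synapses, had 453, 423 and 436 CPM in KO and 226, 263.3 and 299.1 CPM in WT and rose by 0.73 (SE 0.14, adjusted p = 0.0121). Pde1a, a calcium-calmodulin-dependent phosphodiesterase, had 216.4, 226 and 227.7 CPM in KO and 99.2, 145 and 134 CPM in WT and rose by 0.83 (SE 0.15, adjusted p = 0.0121). Both were higher in every KO sample. The zinc finger factor Bcl11a rose by 0.57 (SE 0.13, adjusted p = 0.0259), Slc4a10, a neuronal sodium bicarbonate transporter, by 0.54 (SE 0.09, adjusted p = 0.00895), and the cannabinoid receptor gene Cnr1 by 0.46 (SE 0.11, adjusted p = 0.0471). Without KO L322 only Slc4a10 of these 5 was called, and without WT L300 only Slc4a10 and Pde1a were. Cnr1 also lost the call without KO L310, Bcl11a and Cnr1 without KO L319, and Bcl11a without WT L303. Neurod2, itself 1 of the 13 cortical markers, rose while the thalamus marker sum was lower in KO, and the part of tissue composition in its rise was not tested beyond the covariate fits. With the thalamus markers as a covariate its log2 fold change was 0.55 (adjusted p = 0.439).

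Thalamus, hypothalamus, ependyma and red cell markers all had negative fold changes, and none was called. Thalamus markers had a median log2 fold change of -1.07, and 5 of 7 had an unadjusted p under 0.05. Rgs16, a regulator of G protein signalling, had 10.7, 11.6 and 7.63 CPM in KO and 26.9, 24.7 and 19.3 CPM in WT (log2 fold change -1.24, SE 0.31, adjusted p = 0.0521), and Synpo2 had 19, 13.5 and 13.8 and 35.7, 31.1 and 28.1 CPM (log2 fold change -1.04, SE 0.36, adjusted p = 0.185). Neither pair of groups overlapped. Hypothalamus markers had a median of -1.32 over 8 genes, and WT L285 was the highest sample: Hcrt, the orexin precursor, stood at 59.2, 3 and 1.61 CPM in WT and 5.35, 5.1 and 0.295 CPM in KO (log2 fold change -2.58, SE 1.15, adjusted p = 0.348). Without WT L285 its log2 fold change was 0.62. All 5 red cell genes had an unadjusted p under 0.05, with a median of -2.78. Hbb-bt, a beta-globin gene, stood at 0.947, 3.15 and 1.4 CPM in KO and 22.3, 29.1 and 5.62 CPM in WT (log2 fold change -3.38, SE 0.82, adjusted p = 0.0521). Ependymal genes had a median of -0.51 over 7 genes. Other lists were mixed, with 0 called: choroid plexus genes had 3 of 10 positive (median -0.36), blood leukocyte genes 3 of 7 (median -0.14), cerebellum markers 4 of 7 (median 0.03) and olfactory bulb markers 2 of 4 (median -0.03). The summed olfactory bulb markers were still lower in KO, at 14.8 to 29.1 CPM against 35.5 to 47.1 CPM in WT, without overlap. Sums of the choroid plexus, leukocyte and cerebellum lists overlapped.

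Inhibitory interneuron genes split. Of 13 tested, 1 was called higher and 0 lower, with a median of 0.02. Htr3a, the ionotropic serotonin receptor that defines 1 class of cortical interneurons, stood at 9.37, 8.21 and 9.67 CPM in KO and 3.64, 5.17 and 4.59 CPM in WT and rose by 1.02 (SE 0.20, adjusted p = 0.0121). Slc32a1, the vesicular GABA transporter shared by all GABA neurons, had 100.3, 91.1 and 97.7 CPM in KO and 135, 124 and 123 CPM in WT, without overlap, and was not called (log2 fold change -0.40, SE 0.15, adjusted p = 0.214). Npy, the neuropeptide of a further interneuron class, was at 80.8, 32.7 and 28.4 CPM in KO and 23.2, 25.5 and 21.9 CPM in WT (log2 fold change 1.01, SE 0.41, adjusted p = 0.285), with KO L310 far above the rest. Without KO L310 the log2 fold change of Npy was 0.38 (adjusted p = 0.794).

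Among 27 voltage-gated channel genes 1 was called lower and 0 higher, with a median of 0.10. Hcn2, a subunit of the hyperpolarisation-activated cation channels that set resting potential and rhythmic firing, stood at 170.4, 198 and 169 CPM in KO and 309.7, 277.3 and 278.5 CPM in WT and fell by 0.69 (SE 0.15, adjusted p = 0.0308). It was called without KO L319 or WT L303 and not without any of the other 4 samples. Its paralogue Hcn4 had 10.5, 10.2 and 8.88 CPM in KO and 20.5, 15.4 and 15.9 CPM in WT and was not called (log2 fold change -0.81, SE 0.26, adjusted p = 0.143). Of 34 glutamate and GABA-A receptor subunits none was called (median 0.06). Gria2, the AMPA receptor subunit that limits calcium entry, had 518, 570.4 and 632 CPM in KO and 395, 453 and 502 CPM in WT (log2 fold change 0.35, SE 0.10, adjusted p = 0.106), and Grin2b, an NMDA receptor subunit, had 639, 672 and 783 and 466, 483 and 609 CPM (log2 fold change 0.43, SE 0.13, adjusted p = 0.135). Htr1b and Adra1d were the nearest to a call among 15 monoamine receptors, at -0.59 and 0.56, with 0 called.

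Immediate early genes, which neurons transcribe within minutes of activity, had a median of -0.72 over 17 genes, 14 of them negative, and none was called. Their summed level was 450.1 to 560.9 CPM in KO and 718.8 to 922.9 CPM in WT. Arc, which regulates AMPA receptor removal, stood at 45.4, 42.7 and 11.9 CPM in KO and 85.6, 144 and 106 CPM in WT (log2 fold change -1.75, SE 0.79, adjusted p = 0.354), and the transcription factor Egr1 at 83, 118 and 70.5 and 170.0, 226 and 170.1 CPM (log2 fold change -1.06, SE 0.57, adjusted p = 0.46). Both sets of samples were separate, but the SEs were wide.

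Among the mitochondrial lists only Ndufs4 was called. In the N module 1 of 8 genes was called, Ndufs4 itself, with a median log2 fold change of -0.08. Ndufa12, an accessory subunit that takes the place of the assembly factor NDUFAF2, had 59, 48.6 and 46.7 CPM in KO and 69.8, 67 and 48.8 CPM in WT, with overlap (log2 fold change -0.27, SE 0.11, adjusted p = 0.291). None of 8 Q module genes was called (median -0.11, Ndufs8 -0.17). None of 20 membrane arm genes was called either, although 17 were negative, 5 had an unadjusted p under 0.05, all lower, and the median was -0.18. Ndufb2 had 47.5, 39.6 and 42.5 CPM in KO and 62.2, 57.4 and 45.3 CPM in WT (log2 fold change -0.35, SE 0.13, adjusted p = 0.199), and Ndufc1 32, 25.7 and 26.7 and 39.4, 35.9 and 28.6 CPM (log2 fold change -0.30, SE 0.11, adjusted p = 0.202). WT L303 overlapped the KO samples in both genes. Ndufaf2, that assembly factor, had 8.81, 7.23 and 6.52 CPM in KO and 12.8, 12 and 8.91 CPM in WT, without overlap, and was the nearest to a call of 16 assembly factors (log2 fold change -0.58, SE 0.16, adjusted p = 0.0829).

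The other respiratory genes gave 0 calls. Nuclear subunits of complexes II to V had a median of -0.08 over 35 genes, 30 of them negative. The 13 protein genes of mitochondrial DNA went the other way, with a median of 0.19 and 10 positive. The nearest to a call was mt-Nd6, the only one encoded on the light strand, with 948, 1089 and 1178 CPM in KO and 862, 768 and 876 CPM in WT (log2 fold change 0.36, SE 0.13, adjusted p = 0.224). The groups did not overlap in mt-Nd6, nor in mt-Nd5 (log2 fold change 0.30, SE 0.12, adjusted p = 0.268). Without a stated strand setting, mt-Nd6 reads cannot be told from those of the opposite strand, so mt-Nd6 and mt-Nd5 may not be separate observations. Mitochondrial ribosomal proteins had a median of -0.14 over 78 genes, 16 with an unadjusted p under 0.05, all lower, for example Mrps14 (log2 fold change -0.43, SE 0.12, adjusted p = 0.0918). Mitochondrial carriers had a median of -0.10 over 46 genes and cytosolic ribosomal proteins one of -0.07 over 84. For comparison, 1494 of 25601 genes had an unadjusted p under 0.05 with a positive and 1638 with a negative fold change.

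Stress programmes known from mitochondrial disease in other tissues gave 1 call between them. ATF4 and one-carbon genes, which are induced when mitochondrial translation or respiration fails in muscle and heart, had 0 of 26 called and a median of -0.13. Mthfd2, the mitochondrial folate enzyme that usually leads that response, stood at 5.97, 5.67 and 5.14 CPM in KO and 11.2, 6.96 and 8.1 CPM in WT, lower in every KO sample (log2 fold change -0.65, SE 0.23, adjusted p = 0.196), and Ddit3 overlapped (log2 fold change -0.29, SE 0.12, adjusted p = 0.291). Targets of hypoxia-inducible factors had a median of -0.32 over 12 genes, 10 of them negative. Ndrg1, a hypoxia-responsive gene also abundant in oligodendrocytes, stood at 84.2, 91.7 and 96.3 CPM in KO and 131, 138 and 126 CPM in WT and fell by 0.54 (SE 0.13, adjusted p = 0.0389). With 1 sample left out Ndrg1 too was called only without WT L303. Vegfa, the endothelial growth factor, had 50.7, 50.4 and 44.9 CPM in KO and 70.8, 65.8 and 64.4 CPM in WT, without overlap, and narrowly missed the threshold (log2 fold change -0.46, SE 0.12, adjusted p = 0.0521). Glycolysis and glucose transport had 0 of 25 called and a median of -0.03, with Ldhb at -0.33 and Pdk1 at 0.37. NRF2 antioxidant genes had 0 of 16 called, with Gclc at 0.24 and Txnrd1 at -0.27.

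Chaperone genes had mostly negative fold changes. None of 16 heat shock and ER chaperones was called, 13 were negative, 6 had an unadjusted p under 0.05, all lower, and the median was -0.23. Hsph1, the HSP110 nucleotide exchange factor, stood at 219.5, 184 and 185 CPM in KO and between 271 and 281.6 CPM in WT (log2 fold change -0.50, SE 0.17, adjusted p = 0.167), and Hspa8, the constitutive HSP70, at 1238, 1249 and 1222 and 1559, 1515 and 1458 CPM (log2 fold change -0.29, SE 0.10, adjusted p = 0.179). Neither overlapped. Stip1, the cochaperone that hands clients from HSP70 to HSP90, is outside that list and was chosen after its values were seen. It stood at 127, 124 and 122 CPM in KO and 186, 185 and 152 CPM in WT and fell by 0.49 (SE 0.11, adjusted p = 0.0264). It was not called with the unassigned-read share as covariate (-0.40, adjusted p = 0.0738), and with 1 sample left out it was called only without WT L303. Hsf1, the factor that drives heat shock genes, was not called (log2 fold change -0.15, SE 0.10, adjusted p = 0.629).

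The start regions of Stip1 and Hsph1 are shown because these are the called cochaperone and the chaperone with the smallest p in the list. Both are 300 bases on the minus strand of GRCm38.p6, from RefSeq, at chr19:7039977-7040276 and chr5:149636287-149636586 (the first of 2 listed starts). Capitals mark matches to any of the 3 motifs above, on either strand.
Stip1: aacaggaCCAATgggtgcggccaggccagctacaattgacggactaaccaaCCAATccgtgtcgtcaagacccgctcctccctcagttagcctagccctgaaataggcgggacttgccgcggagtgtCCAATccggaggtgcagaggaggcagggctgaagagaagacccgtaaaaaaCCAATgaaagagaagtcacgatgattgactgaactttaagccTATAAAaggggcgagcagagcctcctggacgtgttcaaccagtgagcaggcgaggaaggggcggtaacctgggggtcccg
Hsph1: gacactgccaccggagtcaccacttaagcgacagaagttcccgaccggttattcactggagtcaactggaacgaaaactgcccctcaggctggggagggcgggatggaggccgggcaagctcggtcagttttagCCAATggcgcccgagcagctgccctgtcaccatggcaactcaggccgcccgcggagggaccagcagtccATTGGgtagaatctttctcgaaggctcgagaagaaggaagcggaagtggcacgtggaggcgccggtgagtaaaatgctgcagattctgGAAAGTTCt
Stip1 holds 4 matches to CCAAT and 1 to TATAAA and none to GAANNTTC. Hsph1 holds 2 matches to CCAAT and 1 to GAANNTTC, the latter after the start. Only GAANNTTC was searched for the heat shock element. By its printed letters, the Hsph1 window also holds both parts of GAANNTTC in the opposite order and with the same spacing. This order occurs before the start and again after it. How often other start windows hold that order was not tested. Whether the Stip1 window holds the element in another arrangement was not tested. Of the chaperone list, 13 genes had a RefSeq start window and 5 of these held GAANNTTC.

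Glial genes showed no call in the lists. Reactive astrocyte genes had 0 of 16 called, 14 positive, 6 with an unadjusted p under 0.05, all higher, and a median of 0.55. Vim, an intermediate filament of reactive astrocytes, stood at 297.6, 79.7 and 54.5 CPM in KO and 53, 44.8 and 49.8 CPM in WT (log2 fold change 1.55, SE 0.41, adjusted p = 0.0769), and the protease inhibitor Serpina3n at 181, 37.6 and 18.9 and 19.4, 14.7 and 15.8 CPM (log2 fold change 2.25, SE 0.62, adjusted p = 0.093). KO L310 was above every other sample in both genes, and without it the log2 fold changes were 0.45 for Vim and 0.76 for Serpina3n (adjusted p = 0.63 for each). The list summed to 2397 CPM in KO L310, 853.8 in KO L319, 408.3 in KO L322 and 469.8 to 489.4 CPM in WT. Genes of disease-associated microglia had 0 of 20 called, 5 with an unadjusted p under 0.05, all higher, and a median of 0.15. Gpnmb, a lysosomal glycoprotein of such cells, had 9.63, 3.51 and 5.64 CPM in KO and 0.657, 1.98 and 2.96 CPM in WT (log2 fold change 1.75, SE 0.49, adjusted p = 0.0942), and the fungal-glucan receptor gene Clec7a had 0.762, 1.31 and 0.59 and 0.263, 0.273 and 0.445 CPM (log2 fold change 1.43, SE 0.53, adjusted p = 0.212). Homeostatic microglia genes had a median of -0.06 over 12 genes.

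No gene of the complement and interferon lists was called (C1ra is in neither), with medians of 0.04 over 10 and 0.32 over 23. The complement component gene C4b stood at 99.8, 62.8 and 40.1 CPM in KO and 29.6, 26.2 and 28.2 CPM in WT (log2 fold change 1.27, SE 0.35, adjusted p = 0.0905), again highest in KO L310. The antiviral factor gene Ifit2 had 15.3, 16.3 and 14.4 CPM in KO and 11.8, 11 and 12.9 CPM in WT (log2 fold change 0.37, SE 0.15, adjusted p = 0.261), without overlap. Oligodendrocyte precursor genes had 0 of 7 called and all 7 negative (median -0.28). Olig1, a transcription factor of the lineage, had 202, 164 and 169 CPM in KO and 255, 244 and 236 CPM in WT (log2 fold change -0.46, SE 0.13, adjusted p = 0.0845). Myelin genes had a median of -0.24 over 15 genes, 13 of them negative, and none was called. Brain endothelium had a median of 0.15 over 13 genes, with 0 called. In bulk tissue with these marker sums, the part of cell numbers in these values was not tested.

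**Figure D4:**
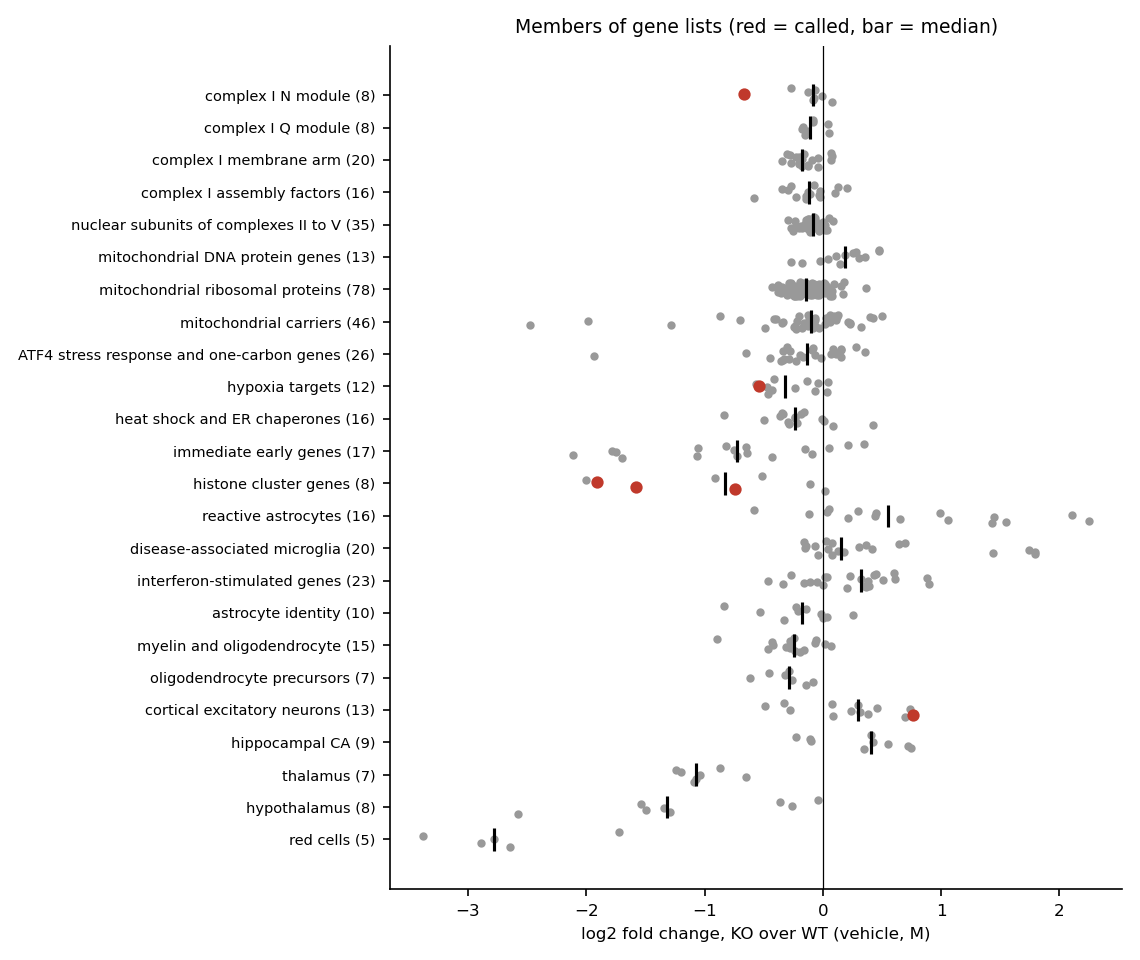
Log2 fold change of KO over WT (horizontal axis) for the tested members of 24 gene lists, 1 point per gene, with the number tested in parentheses, called genes in red and the list's median as a black bar. Called genes appear in 4 lists, lower among complex I N module, hypoxia and histone genes and higher among cortical excitatory neuron genes, while red cell, hypothalamus and thalamus medians lie at -2.78, -1.32 and -1.07.

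Several further lists gave 0 calls. Striatal projection neuron genes had a median of -0.22 over 13 genes, 11 of them negative, glucocorticoid targets one of 0.20 over 12, circadian clock genes one of 0.13 over 16, with 12 positive, and cholesterol synthesis one of -0.03 over 17. Npas2, a clock transcription factor of the forebrain, was the nearest to a call among the clock genes at 0.54 (adjusted p = 0.198), and the 3 KO samples lay above the 3 WT samples (39.2, 32.5 and 48.9 against 25.6, 26.3 and 31 CPM).

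Astrocyte identity genes gave 0 calls of 10, 8 of them negative (median -0.18). Slc6a11, the astrocytic GABA transporter that is strongest outside cortex, had 221, 325 and 226 CPM in KO and 576, 415 and 390.0 CPM in WT (log2 fold change -0.84, SE 0.25, adjusted p = 0.117), and S100b had 69.3, 91.3 and 78.9 and 121, 128 and 96.2 CPM (log2 fold change -0.53, SE 0.15, adjusted p = 0.103). Other called genes known from astrocytes or from their metabolism were lower, and they were chosen after their values were seen, with no test of them as a group. Slc6a9, the glycine transporter GLYT1, stood at 36, 34.9 and 25.7 CPM in KO and 57, 54.1 and 50.3 CPM in WT and fell by 0.74 (SE 0.15, adjusted p = 0.0165). Slc7a10, a transporter of D-serine and small neutral amino acids, had 31.1, 26.7 and 20.7 CPM in KO and 48.7, 39 and 42.1 CPM in WT and fell by 0.73 (SE 0.15, adjusted p = 0.0128). Pygm, the glycogen phosphorylase that mobilises astrocytic glycogen, had 23.4, 35.5 and 34.2 CPM in KO and 45.5, 55.5 and 51.9 CPM in WT and fell by 0.71 (SE 0.15, adjusted p = 0.019). No KO sample reached the lowest WT sample in these 3 genes. Acsbg1, a long-chain acyl-CoA synthetase, fell by 0.56 (SE 0.13, adjusted p = 0.0327), and the receptor gene Gpr37l1 by 0.51 (SE 0.11, adjusted p = 0.0227). Without KO L322, WT L285 or WT L300 none of these 5 was called, Pygm was not called without KO L310, and Acsbg1 and Gpr37l1 were not called without KO L319.

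Enzymes of fatty acid and GABA breakdown were also among the lower genes, chosen in the same way. Hadhb, a subunit of the mitochondrial trifunctional protein of fatty acid oxidation, stood at 54.4, 57.4 and 42 CPM in KO and 76.7, 71.2 and 69.2 CPM in WT and fell by 0.50 (SE 0.12, adjusted p = 0.037). Acaa1a, the peroxisomal thiolase, fell by 0.54 (SE 0.11, adjusted p = 0.019), and Pex6, an ATPase of peroxisome import, by 0.49 (SE 0.09, adjusted p = 0.0121). Abat, the GABA transaminase, had 249, 306 and 288.9 CPM in KO and 461, 378 and 369.7 CPM in WT and fell by 0.52 (SE 0.10, adjusted p = 0.0121), and Aldh5a1, the succinic semialdehyde dehydrogenase of the next step, fell by 0.35 (SE 0.08, adjusted p = 0.0337). The neurofilament genes Nefl and Nefm, which support large-calibre axons, fell by 0.50 and 0.51. Coq8a, an atypical kinase needed for coenzyme Q synthesis, rose by 0.52 (SE 0.12, adjusted p = 0.0264), from 28, 30.0 and 29.9 CPM in WT to 44.9, 39.3 and 41.9 CPM in KO. Of these 8 genes only Pex6 was called without KO L322 and none without WT L300. Abat, Aldh5a1, Nefl, Nefm and Coq8a also lost the call without KO L310, Nefl without KO L319, and Nefl and Nefm without WT L303.

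The 132 genes were then read in comparisons that share no sample with this one. In KO against WT with vehicle among samples with the letter F (5 against 5), 1270 genes were called (4.96%). Of the 132, 113 had the same sign there (85.6%), 47 were called with the same sign and 1, Zbtb18, with the opposite sign. The share with the same sign was 94.6% among the 74 lower genes and 74.1% among the 58 higher genes. In KO against WT under CP2 with the letter M (5 against 5), 2558 genes were called (9.99%). Of the 132, 102 had the same sign there (77.3%), 33 were called with the same sign and 2 with the opposite one, Pla2g16 and 1500009C09Rik. The KO CP2 sample L291, labelled M, had Xist at 47.3 CPM. Without it and L266, a KO CP2 sample set apart in earlier results, 108 had the same sign and 20 were called, all with the same sign. With the unassigned-read share as covariate, 8 of the 132 were called with the same sign in F and 27 under CP2. With the hippocampal CA markers as covariate these numbers were 13 and 27. The share of same signs over all tested genes was not counted. All 3 comparisons came from 1 fit and share its estimate of the spread.

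Called in all 3 comparisons with 1 direction were 15 genes, 8 lower and 7 higher, which is 11.4% of the 132. Over all 25601 tested genes, 0.887% were called with 1 direction in both of the other comparisons. The lower ones were Ndufs4, Hist1h2be, Pex6, Stip1, Acaa1a, the phosphoinositide kinase gene Pik3c2b, the irisin precursor gene Fndc5 and the RNA-editing enzyme gene Adarb1. The higher ones were Rbm3, Atp2c2, Arl4a, Slc7a14, Ndst1, Gm28578 and 4933433G19Rik. Rbm3 was the most even of them, at 1.06 here, 1.13 (adjusted p = 0.000188) in F and 1.03 (adjusted p = 0.000129) under CP2. Ndufs4 was at -0.66, -0.63 (adjusted p = 2.83e-05) and -0.34 (adjusted p = 0.00611), and Hist1h2be at -1.58, -1.48 (adjusted p = 0.0005) and -0.98 (adjusted p = 0.00708). Stip1 was at -0.49, -0.32 (adjusted p = 0.0201) and -0.32 (adjusted p = 0.0115). Without L266 and L291, 11 of the 15 were still called under CP2, and without WT L285 or WT L300 none of the 15 was called in the comparison with vehicle in M. With the unassigned-read share or the hippocampal CA markers as covariate, 5 of the 15 were called in F and 13 under CP2. Cirbp and Hsph1, not called here, were called in both other comparisons: Cirbp at 0.96 (adjusted p = 0.00166) and 0.84 (adjusted p = 0.00194), and Hsph1 at -0.80 (adjusted p = 0.0005) and -0.57 (adjusted p = 0.00355).

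**Figure D5:**
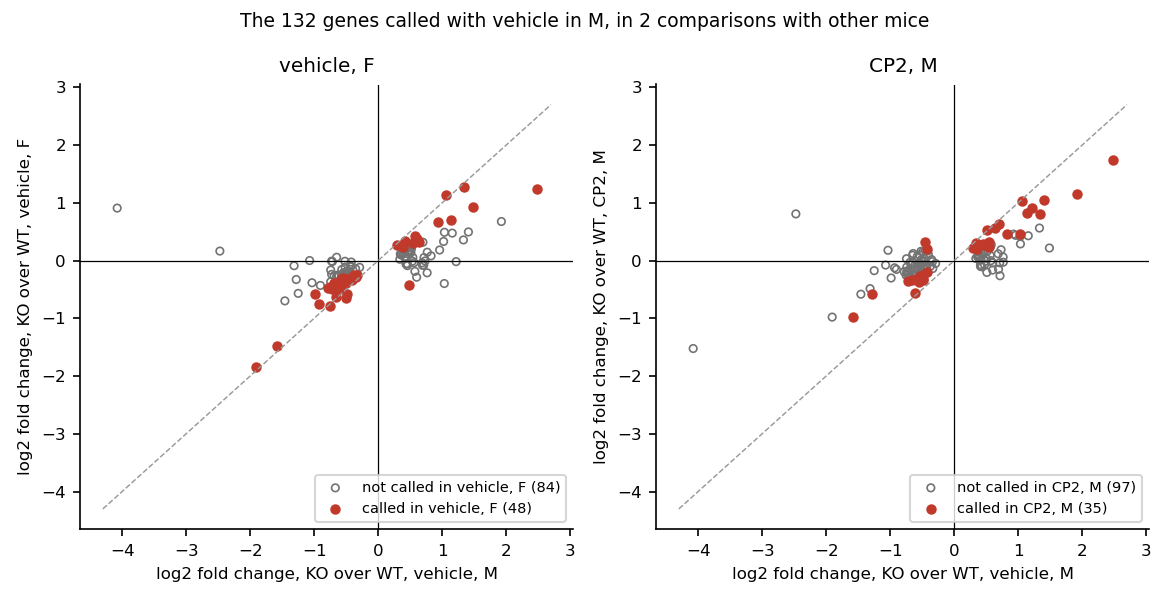
Log2 fold change of KO over WT for the 132 called genes with vehicle in M (horizontal axis) against that with vehicle in F (left) and with CP2 in M (right), where filled points are called there and the dashed line marks equal values. Of the points, 48 are called in F and 35 under CP2, and most lie on the same side of 0 in both comparisons but closer to 0 on the vertical axis. The genes were chosen by their call on the horizontal axis, so the smaller vertical values cannot be read as a weaker effect.

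The difference between the knockout effects was tested directly. For M minus F with vehicle it was called at 26 of 25601 genes (0.102%), 25 of them higher, and 7 of these were among the 132. Smoc2 was at 1.03 in M and -0.40 in F, a difference of 1.43 (SE 0.26, adjusted p = 0.0163). Neurod2 was at 0.77 and -0.21, a difference of 0.98 (SE 0.20, adjusted p = 0.0333). The transcription repressor gene Zbtb18 stood at 0.48 in M and -0.41 in F, a difference of 0.89 (SE 0.14, adjusted p = 0.00768). Bcl11a, Setbp1, Rtn4rl1 and Hist1h4c made up the rest of the 7. Hist1h4c had only 0, 0.0423 and 0.0184 CPM in KO and 0.619, 0.29 and 0.213 CPM in WT, so its fitted fold change rests on very few reads. With the hippocampal CA markers as a covariate 0 genes were called (2600 at an unadjusted p under 0.05), and 0 were called without WT L285 (1642). The count was 1 without KO L310, 3 without WT L300 and 10 without KO L322.

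For vehicle minus CP2 in M the difference was called at 507 genes (1.98%), and 31 of these were among the 132. Cngb1 was at -2.47 with vehicle and 0.81 with CP2, a difference of -3.28 (SE 0.74, adjusted p = 0.0165). Mdk was at -1.03 and 0.18, a difference of -1.21 (SE 0.25, adjusted p = 0.00945). Abat was at -0.52 and 0.16, a difference of -0.68 (SE 0.13, adjusted p = 0.00579). Adding the unassigned-read share left 0 calls (2130 at an unadjusted p under 0.05), and 89 were left without L266 and L291. Under CP2 in M that share was 5.18% to 9.06% in KO and 9.05% to 13.2% in WT. With vehicle in M it was 11.3% to 13.03% in KO and 9.48% to 11.6% in WT. Its part in the difference was not tested beyond the covariate fit. With 1 sample left out, the share of tested genes called was 0.123% (33 genes) without WT L300, 0.182% without WT L285, 0.301% without KO L322, 1.1% without KO L319, 1.2% without KO L310 and 3% (808 genes) without WT L303.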

How the data were processed

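The deposited table holds raw counts per Ensembl gene for 36 samples. Per the submitters' processing notes STAR, HTSeq and GRCm39 were used by the authors, and versions, annotation and strand setting are not given in the sources used here. The labels' protocols name a Trizol-based extraction, polyA enrichment and Illumina TruSeq libraries. Of 56985 rows, 5 htseq-count summary lines were left out, and 52073 of 56980 identifiers (91.4%) had a GENCODE M21 symbol. The 8 groups were fitted in 1 edgeR 4.0.16 model in R 4.3.3 (TMM, filterByExpr, robust quasi-likelihood) over all samples, with Benjamini-Hochberg adjustment within each contrast over 25601 genes. CPM uses TMM library sizes, and log2 CPM a prior count of 2. The SE is the log2 fold change over the square root of F. The functions were tested on simulated data. Named genes were Ndufs4, the 12 largest called changes each way (mean CPM of at least 1, no overlap), called list members, up to 2 others per list and 5 neighbours each side. The comparison, the 50 gene lists and these rules were chosen with earlier results of these data known. A few genes that these rules name are not reported here. DESeq2 1.42.0 and the other alternatives are given at the end. Start windows are from RefSeq on GRCm38.p6, and no GRCm39 coordinates are used.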

Additional observations from a re-analysis of the deposited data

Results flagged for a closer look

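Several named genes had a knockout effect that differed, by a test of the difference itself, between M and F with vehicle. The difference was 1.43 (SE 0.26, adjusted p = 0.0163) on the log2 scale for Smoc2, 0.89 (SE 0.14, adjusted p = 0.00768) for Zbtb18, 0.98 (SE 0.20, adjusted p = 0.0333) for Neurod2, 0.76 (SE 0.16, adjusted p = 0.0333) for Bcl11a, 0.89 (SE 0.18, adjusted p = 0.0315) for Setbp1, 0.60 (SE 0.12, adjusted p = 0.0315) for Rtn4rl1 and -4.99 (SE 1.04, adjusted p = 0.0331) for Hist1h4c. The last value rests on very few reads (0, 0.0423 and 0.0184 CPM in KO and 0.619, 0.29 and 0.213 CPM in WT with vehicle in M), and its size depends on the prior count. Of these 7, 0 passed with the hippocampal CA or thalamus markers as covariate, 2 with the red cell markers and 7 with the unassigned-read share. In the 16 vehicle samples alone 1 passed. With 1 sample left out the number was 0 (WT L285), 1 (KO L310, WT L300), 2 (KO L322), 5 (KO L319) or 6 (WT L303). All 7 kept their direction in these fits, which reuse the same samples, so the kept direction is no separate support.

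Between vehicle and CP2 in M the effect differed for Cngb1 by -3.28 (SE 0.74, adjusted p = 0.0165), for Mdk by -1.21 (SE 0.25, adjusted p = 0.00945), for Abat by -0.68 (SE 0.13, adjusted p = 0.00579), for Aldh5a1 by -0.37 (SE 0.10, adjusted p = 0.049), for Bcl11a by 0.58 (SE 0.16, adjusted p = 0.0482), for Setbp1 by 0.77 (SE 0.18, adjusted p = 0.0209), for Pla2g16 by -0.78 (SE 0.13, adjusted p = 0.00276), for 1500009C09Rik by -0.63 (SE 0.11, adjusted p = 0.00326), for Zbtb18 by 0.55 (SE 0.14, adjusted p = 0.0381) and for Rtn4rl1 by 0.47 (SE 0.12, adjusted p = 0.0378). These are among 31 called genes with such a difference. Of the 31, 0 passed with the unassigned-read share or the red cell markers as covariate, 11 with the thalamus markers, 13 with the CA markers and 8 without L266 and L291. With 1 sample left out the number was 2 (WT L285), 5 (WT L300), 5 (KO L322), 16 (KO L310), 22 (KO L319) or 29 (WT L303). All 31 kept their direction in these fits. The fits reuse the samples in which the 31 were called, so the kept direction is no separate support.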

How the results depend on the processing

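The 132 calls (0.227% of tested genes higher, 0.289% lower) moved to 483 in the 6 samples alone (0.998%, 1.31%), 772 in the 16 M samples (1.44%, 1.84%), 74 in the 16 vehicle samples (0.124%, 0.192%), 226 at a CPM of at least 1 in 3 samples (0.674% higher) and 569 with DESeq2 (1.16%, 1.06%). They were 66 with the unassigned-read share as covariate (0.141%, 0.117%), 45 with red cell markers (0.0781%, 0.0977%) and 0 with thalamus markers (0%, 0%), the last pair added after seeing the data. Without a filter on low counts 0.0778% were higher. Leaving out 1 sample gave 0 to 152 calls, 0% to 0.264% higher and 0% to 0.301% lower. The M minus F difference (26) gave 0 with CA markers, 0 with thalamus markers, 12 with red cell markers and 0 to 33 with 1 sample left out. The vehicle minus CP2 difference (507) gave 0 with the unassigned-read share, 220 with CA markers, 9 with red cell markers, 169 with thalamus markers, 89 without L266 and L291, and 33 to 808 with 1 sample left out. The cause of these shifts was not tested. For the 132 calls the other settings stayed within 1.5 times that count. The differences moved further among the 132 genes. M minus F was called at 7 of them in the main fit and at 1 in the 16 vehicle samples. Vehicle minus CP2 was called at 31 in the main fit and at 55 in the 16 M samples. Uncalled log2 fold changes that reversed with 1 sample left out were Hcrt (-3.13 to 0.62), A430090L17Rik (-1.004 to 0.23), Itga2 (-0.016 to 1.27) and Gm49395 (-0.72 to 1.09), and with thalamus markers Mocs2 (0.015) and Gm49395 (0.31). No paired analysis was possible because no title number is shared between groups. With 3 samples a group, a permutation test cannot go below p = 0.1.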
